A study of Mus musculus with 6 samples.

Results

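Interferon gamma (Ifng) and the 6 receptor genes through which interferons of all types act, Ifngr1, Ifngr2, Ifnar1, Ifnar2, Ifnlr1 and Il10rb, were followed in the colon of STAT6-/- and WT mice. The members were taken by name from the 19949 genes listed over the 6 libraries, and all 7 were found. Every mouse was labelled BALB/c, was 6 to 8 weeks old and had taken 3% dextran sulfate sodium (DSS), a salt that injures the colonic epithelium, for 3 days. The STAT6-/- group carried a disrupted gene for STAT6, a transcription factor that acts below the interleukin-4 and interleukin-13 receptors, and the WT group was the control; each had 3 libraries of total RNA. Colons without DSS are not analysed here, so each difference is between genotypes under injury. The labels call the tissue colon but place the sampling in the proximal intestine, and the luminal face was scraped before RNA was taken.

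The libraries held 17122315 to 19555450 expected counts (read numbers estimated per transcript). Stat6 stood at 49.9, 38.5 and 53.2 CPM (counts relative to the TMM-scaled library total) in the STAT6-/- libraries against 91.7, 104 and 88.8 in WT. The groups did not overlap, and Stat6 differed by -1.01 ± 0.16 on the log2 scale (SE; edgeR adjusted p = 0.0134 over all genes), a call lost when WT replicate 2 (0.0725) or WT replicate 3 (0.0721) was left out. Epithelial markers were abundant throughout, their 11 genes summing to 17610 to 27960 CPM in STAT6-/- and 18760 to 24950 CPM in WT. On the first principal component, which held 61.4% of the variance, STAT6-/- replicate 2 lay nearest to WT. Every STAT6-/- library carried the sex-linked transcripts of a male (Eif2s3y, Ddx3y, Uty and Kdm5d) and all 3 WT libraries the female transcript Xist, so that genotype and sex cannot be told apart in any comparison here. In whole tissue, fewer cells of a type and less RNA per cell cannot be told apart either.

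Interferon gamma is made mainly by T cells, natural killer cells and innate lymphoid cells. It binds IFNGR1, which pairs with IFNGR2, and the JAK1 and JAK2 kinases on the receptor then start signalling. The type I interferons act through IFNAR1 and IFNAR2 and the type III interferons through IFNLR1 and IL10RB, in each case through JAK1 and TYK2 and a complex that holds STAT2 and IRF9. In the gut, IFNLR1 is known chiefly from epithelial cells, while IL10RB also serves the receptors of interleukin-10 and interleukin-22.

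Of the 7 genes only Ifnar2 had more than 1 transcript listed, and its 2 transcripts part at a splice site (exons and sequence from GENCODE M21, matched by RefSeq identifier). The short transcript (7 exons, 1099 nucleotides, coding length 744) reads through the splice donor after position 91393913 of chromosome 16 (mm10) and reaches a stop codon within 38 bases, while the long one (9 exons, 3047 nucleotides, coding length 1539) joins the exon at 91399218 to 91399345. The long form encodes the signalling receptor of the cell membrane, and the short form a soluble receptor that has no membrane anchor. The 40 shared bases before the split are given in lower case, and the 38 bases that are particular to each transcript in capitals, 5′ to 3′ on the plus strand. They are shown because the 2 forms, whose shares were compared between genotypes, part here.
Ifnar2 short: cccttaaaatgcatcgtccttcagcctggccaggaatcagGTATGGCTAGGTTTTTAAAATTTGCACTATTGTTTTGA
Ifnar2 long: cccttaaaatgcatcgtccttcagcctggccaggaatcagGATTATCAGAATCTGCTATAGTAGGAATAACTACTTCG
The capitals of the short form end in its stop codon, TGA.

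Promoters were taken from RefSeq (GRCm38.p6, the assembly of mm10), where 6 of the 7 genes had an entry, and were searched on both strands over 300 bases around the start. Searched were the gamma-activated site (TTC and GAA with 3 bases of any kind between them), the wider spacing known for STAT6 (TTC and GAA with 4 bases between) and a core of the interferon-stimulated response element (GAAA and GAAA with 2 bases between). In all 32851 windows of that length, 8.3%, 6.95% and 3.44% held them. The gamma-activated letters were present once in Ifng, starting 249 bases before the start, in Ifnar2 (TTCCTGGAA, 214 bases before) and in Ifnar1 (TTCACGGAA, from 5 bases before and across the RefSeq start at 91485215, which lies downstream of the gene start given further on). The STAT6-type letters were present in Ifngr2 alone among the 6, 91 bases before its start. Neither Ifnlr1 nor Ifngr1 held any of the 3 motifs. The 250 bases upstream of Ifng (chr10:118440796-118441045) and of Ifngr2 (chr16:91546809-91547058), both on the plus strand, are shown as the ligand and as the gene with the letters of the deleted factor, with the matches in capitals.
Ifng: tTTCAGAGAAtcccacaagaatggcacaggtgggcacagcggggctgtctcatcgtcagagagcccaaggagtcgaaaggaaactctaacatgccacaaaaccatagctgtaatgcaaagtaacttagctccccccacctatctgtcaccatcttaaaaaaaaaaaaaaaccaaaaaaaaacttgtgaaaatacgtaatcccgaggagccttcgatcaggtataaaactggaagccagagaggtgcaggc
Ifngr2: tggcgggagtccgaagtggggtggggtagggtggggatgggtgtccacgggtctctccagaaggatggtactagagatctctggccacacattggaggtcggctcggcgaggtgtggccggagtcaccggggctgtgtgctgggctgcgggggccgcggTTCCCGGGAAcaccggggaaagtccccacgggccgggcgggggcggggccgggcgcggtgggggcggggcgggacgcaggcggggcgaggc
The Ifngr2 window is the richer in GC, at 74.3%, with 31 CpG, against 46% and 7 CpG in Ifng; the medians over all windows were 52.7% and 7. A match of these letters is a description and does not show that a factor binds there.

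Ifng transcripts were counted in 2 of the 3 STAT6-/- libraries and in none of the WT libraries. Replicate 1 held 62 counts (exact Poisson 95% interval 47.5 to 79.5), replicate 3 held 17 (9.9 to 27.2) and replicate 2 held 0, as did WT replicates 1, 2 and 3; these intervals cover counting error only. On the CPM scale the STAT6-/- libraries stood at 2.89, 0 and 0.899. The ligand was thus high in one STAT6-/- library, lower in another and not detected at this depth in the third, so the groups overlapped at 0. A count of 0 was given a limit of 3 counts per library, which is 0.17 to 0.186 CPM in WT; the two-sided Poisson interval of 0 reaches 3.69 counts, or 0.209 to 0.229 CPM. The STAT6-/- mean of 1.26 ± 1.48 CPM (SD, n = 3), with replicate 2 entered as 0, was 7.11 times the mean of the 3-count limit over the WT libraries. Against the limit of 3.69 counts the ratio would be smaller. Exact permutation of the means, two-sided, gave p = 0.4, with 0.1 the least possible for 3 libraries against 3. The difference in means, 1.26 CPM, rested on replicate 1: it was 0.45 CPM without STAT6-/- replicate 1 and 1.9 CPM without STAT6-/- replicate 2. Ifng (chromosome 10, 118441046 to 118445894, mm10) had too few counts for the genome-wide fit. In the fit without a filter, which called 15.8% of 19877 genes, its edgeR adjusted p was 0.114. Ifng lies 9.2 Mb from Stat6 on the same chromosome.

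**Figure D1:**
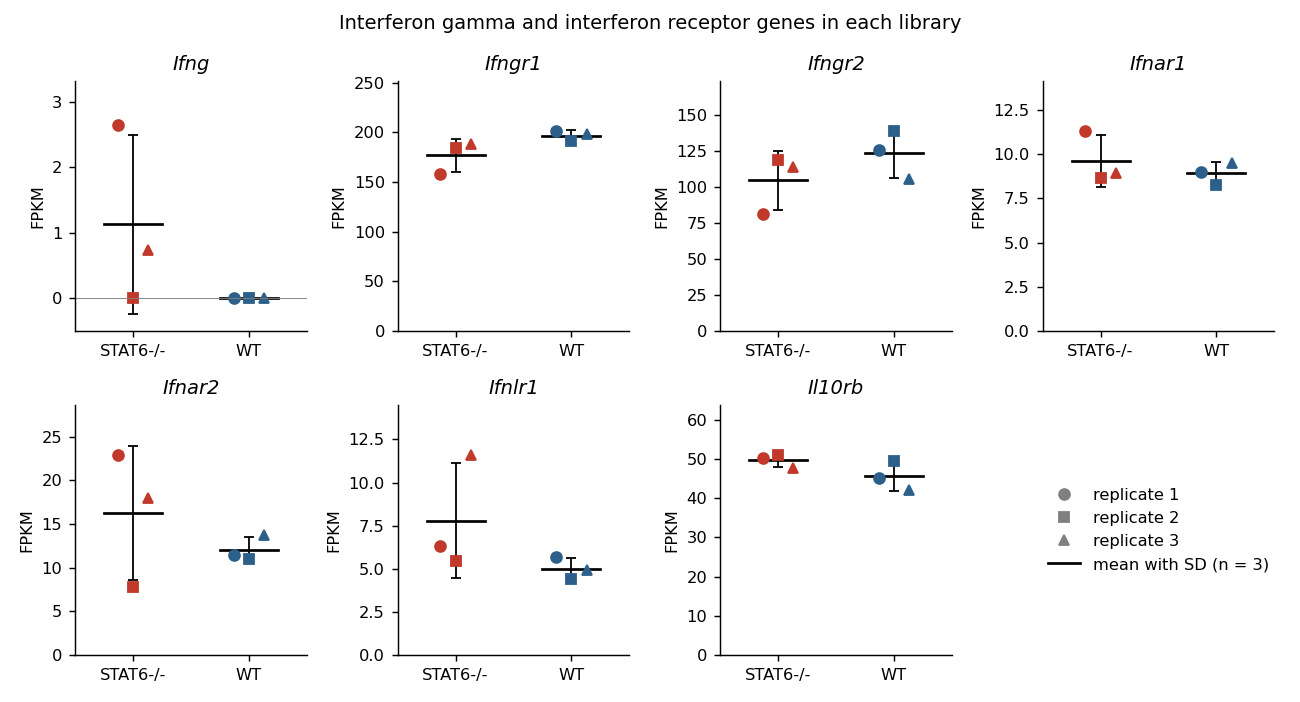
Level of each of the 7 genes as FPKM (vertical axes, each from its own range) in the 3 STAT6-/- and 3 WT libraries; points are libraries, shapes replicates, and bars the mean with its SD. Ifng is above 0 in 2 STAT6-/- libraries only. On this scale the groups overlap in every receptor gene except Ifngr1, with 158.1 to 188.1 FPKM in STAT6-/- and 190.91 to 201.26 FPKM in WT. As CPM the Ifngr1 groups overlap too.

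None of the 6 receptor genes passed the test between genotypes, where 22.9% of all 15066 genes tested did (edgeR, adjusted p below 0.05). Their unadjusted p were 0.107 or more, and DESeq2 also called 0 of them while calling 34.0% of all genes. On the CPM scale their groups overlapped in 6 of 6, against no overlap in 46.5% of all genes tested. As FPKM the Ifngr1 groups did not overlap, at 158.1, 184.01 and 188.1 in STAT6-/- against 201.26, 190.91 and 197.91 in WT. The share of all genes without overlap as FPKM was not computed. The median size of their log2 fold changes was 0.25, beside 0.52 over all genes tested. A p above the threshold does not show that the genotypes are alike, so the interval of each difference is given with it.

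Ifngr1, the ligand-binding chain of the interferon gamma receptor (chromosome 10, 19591949 to 19610229), stood at 307, 394 and 413 CPM in STAT6-/- and at 436, 441 and 411 CPM in WT. Only STAT6-/- replicate 1 stood well below the others. The log2 fold change was -0.21 ± 0.18 (SE; 95% interval -0.63 to 0.22; edgeR adjusted p = 0.413), which leaves room for a level between 0.645 and 1.16 times that of WT. Ifngr2, the signalling chain (chromosome 16, 91547059 to 91564007), stood at 153, 248 and 243 CPM in STAT6-/- and at 264, 312 and 213 CPM in WT. Here too STAT6-/- replicate 1 was the lowest, and WT replicate 3 lay below the other 2 STAT6-/- libraries. Its log2 fold change was -0.29 ± 0.25 (interval -0.87 to 0.29; edgeR adjusted p = 0.4).

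Ifnar1, the chain of the type I receptor that carries TYK2 (chromosome 16, 91485032 to 91510523), varied least between genotypes. It stood at 73.4, 61.8 and 65.3 CPM in STAT6-/- and at 65, 63.7 and 65.9 CPM in WT, and the log2 fold change was 0.04 ± 0.13 (interval -0.25 to 0.34; edgeR adjusted p = 0.817). The interval limits the STAT6-/- level to between 0.84 and 1.26 times that of WT. Ifnar2, the chain that carries JAK1 (chromosome 16, 91372783 to 91405589), spread far more, at 34.4, 11.8 and 30.6 CPM in STAT6-/- against 17.1, 18.2 and 19.9 CPM in WT. STAT6-/- replicates 1 and 3 lay above all WT libraries and replicate 2 below them all. The log2 fold change was 0.48 ± 0.38 (interval -0.41 to 1.37; edgeR adjusted p = 0.369). Without STAT6-/- replicate 2 it was 0.85, with an edgeR adjusted p of 0.0121, in a fit that called 33.9% of 15324 genes. That fit leaves out the only STAT6-/- library below WT, so the separation of the groups in it was fixed by the omission.

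The 2 Ifnar2 transcripts were both present in every library. The long transcript, for the membrane receptor, stood at 5.86, 1.42 and 4.66 FPKM (a scale that allows for transcript length) in STAT6-/- and at 1.87, 2.12 and 2.37 FPKM in WT. For the short transcript the STAT6-/- libraries gave 17.1, 6.4 and 13.3 FPKM and the WT libraries 9.58, 8.87 and 11.3 FPKM. The short form was the larger in all 6 libraries. The long form made up 25.5%, 18.2% and 25.9% of the gene's FPKM in STAT6-/- and 16.3%, 19.3% and 17.3% in WT. STAT6-/- replicates 1 and 3, the libraries with Ifng counts, had the highest long-form shares, and replicate 2 lay within the WT range. The means of 23.2% ± 4.38 and 17.6% ± 1.51 (SD, n = 3 each) differed by 5.57 points, and p was 0.2 by exact permutation, two-sided. The division of reads between the 2 forms is RSEM's estimate.

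**Figure D2:**
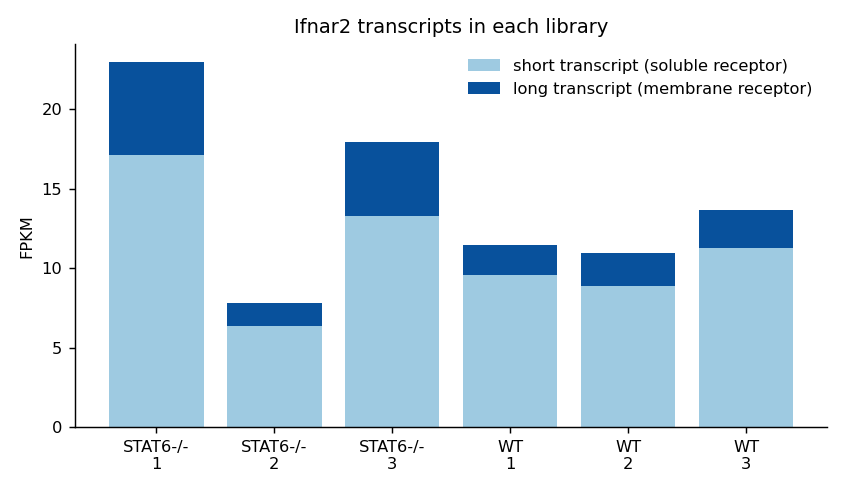
Ifnar2 level in each library as FPKM (vertical axis), stacked by transcript: the short form below in light blue and the long form above in dark blue. STAT6-/- replicates 1 and 3 have the tallest bars and long-form shares of 25.5% and 25.9%, and STAT6-/- replicate 2 the shortest bar.

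Ifnlr1, the specific chain of the type III receptor (chromosome 4, 135686457 to 135708181), stood at 23.4, 22.1 and 48.5 CPM in STAT6-/- and at 23.4, 19.4 and 19.5 CPM in WT. A single library, STAT6-/- replicate 3, stood apart, and the other 2 STAT6-/- libraries lay beside WT replicate 1. The log2 fold change was 0.59 ± 0.32 (interval -0.17 to 1.36; edgeR adjusted p = 0.207), and 0.18 without that library. Il10rb, the chain that IFNLR1 shares with the interleukin-10 and interleukin-22 receptors (chromosome 16, 91406157 to 91425834), stood at 86.2, 96.3 and 92.3 CPM in STAT6-/- and at 86.3, 101 and 77 CPM in WT. The WT libraries enclosed the STAT6-/- libraries, and the log2 fold change was 0.06 ± 0.15 (interval -0.3 to 0.41; edgeR adjusted p = 0.797); without WT replicate 3 its sign turned, at -0.04.

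Compared per length as FPKM, the genes kept the same order of mean level in both genotypes. These FPKM rest on the transcript lengths of the deposited processing, and the order under other lengths was not tested. Ifngr1 led, at 177 ± 16.3 FPKM in STAT6-/- and 197 ± 5.28 FPKM in WT (mean ± SD, n = 3), followed by Ifngr2 at 105 ± 20.5 and 123 ± 16.7 FPKM and Il10rb at 49.7 ± 1.78 and 45.6 ± 3.73 FPKM. Lower down was Ifnar2, its transcripts summed, at 16.2 ± 7.71 and 12 ± 1.46 FPKM. Ifnar1 followed at 9.61 ± 1.46 and 8.9 ± 0.638 FPKM and Ifnlr1 at 7.79 ± 3.34 and 5 ± 0.637 FPKM. The neighbours in this order did not overlap in WT, while in STAT6-/- the ranges of Ifnar2 and Ifnar1, and those of Ifnar1 and Ifnlr1, did. Both chains of the interferon gamma receptor were thus far more abundant per length than both chains of the type I receptor. By mean FPKM over the 6 libraries, Ifngr1 lay at the 97th percentile of the genes tested, Ifngr2 at the 95th, Il10rb at the 88th, Ifnar2 at 66.8, Ifnar1 at 56.8 and Ifnlr1 at the 48th, while Ifng, itself not tested, lay at 8.6.

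The balance between the chains of each receptor was compared within libraries. Ifngr1 exceeded Ifngr2 in all 6, by 1.95, 1.55 and 1.65 times in STAT6-/- and 1.6, 1.38 and 1.87 times in WT on the FPKM scale. Ifnar1 over Ifnar2, its transcripts summed, was 0.492, 1.1 and 0.495 in STAT6-/- and 0.783, 0.749 and 0.693 in WT. Against that sum, most of it the short soluble form, only STAT6-/- replicate 2 had the larger value for Ifnar1. The long membrane form alone lay below Ifnar1 in every library. It stood at 5.86, 1.42 and 4.66 FPKM in STAT6-/- and 1.87, 2.12 and 2.37 FPKM in WT. Ifnar1 stood at 11.29, 8.63 and 8.9 FPKM in STAT6-/- and 8.97, 8.23 and 9.5 FPKM in WT. Ifnlr1 over Il10rb was 0.126, 0.106 and 0.243 in STAT6-/- and 0.125, 0.0888 and 0.117 in WT. The log2 ratios differed between genotypes (STAT6-/- minus WT) by 0.09, -0.2 and 0.44 in that order, and exact two-sided permutation tests gave p of 0.6, 0.8 and 0.4, each 0.8 after adjustment over the 3 ratios.

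The kinases and transcription factors that act below these receptors differed from the receptors in their counts: 4 of 7 rose and 0 fell, where 11.4% of all genes rose and 11.5% fell, and their median log2 fold change was 0.76. Stat2, the subunit of the type I and III complex, stood at 287, 186 and 287 CPM in STAT6-/- against 31.5, 47.8 and 36 CPM in WT, a 6.6-fold rise (log2 2.72 ± 0.26 SE, edgeR adjusted p = 0.00732). Even STAT6-/- replicate 2, the lowest of its group, lay above the highest WT library. Irf9, the DNA-binding subunit of that complex, rose 2.27-fold, Stat3 2.26-fold and the kinase gene Tyk2 1.58-fold. Irf1, the most abundant of the list, stood at 432, 375 and 457 CPM against 227, 335 and 186 CPM, without overlap (edgeR adjusted p = 0.065). The other 2 kinase genes had log2 fold changes of -0.09 ± 0.2 (Jak1) and -0.1 ± 0.28 (Jak2). Without WT replicate 1, 2 and 3 the list had 2, 1 and 0 genes called. Those fits called 1407 of 15432, 31 of 15497 and 18 of 15395 genes.

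A list of 11 restrainers of interferon receptor signalling was taken by name, and their role was not tested here. Of these genes, 5 rose and 1 fell, beside 11.4% and 11.5% of all genes. Their median log2 fold change was 1.03, against 0.01 over all genes tested. Usp18, which binds IFNAR2 and blocks type I signalling there, stood at 151, 48.1 and 164 CPM in STAT6-/- against 3.19, 12.6 and 5.62 CPM in WT, a 17-fold rise (log2 4.08 ± 0.66, edgeR adjusted p = 0.0134). Socs1, an inhibitor of the receptor kinases, rose 8.28-fold, from 3.67, 7.45 and 3.18 CPM in WT to 65.1, 20.5 and 32.7 CPM. The related Socs3 rose 16.7-fold, the ubiquitin-like modifier Isg15, the most abundant of the list, 10.2-fold, and the phosphatase gene Ptpn1 2.5-fold. Pias1, an inhibitor of activated STAT proteins, fell by 0.6 on the log2 scale, at 29.7, 30.4 and 29.5 CPM against 39.9, 46.7 and 49 CPM. In Usp18, Socs1 and Socs3 STAT6-/- replicate 2 was the lowest of its group and still above every WT library. Without WT replicates 2 and 3 the list had 1 and 0 genes called, in fits that called 31 of 15497 and 18 of 15395 genes.

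**Figure D3:**
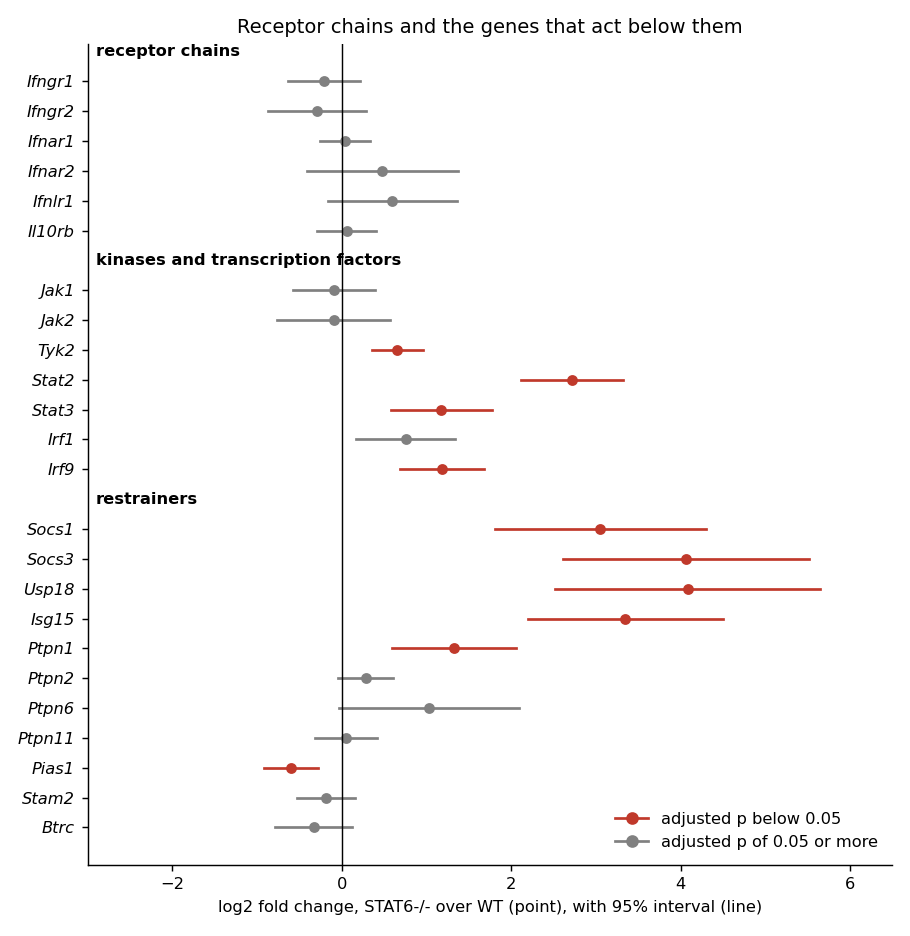
Log2 fold change of STAT6-/- over WT (horizontal axis) with its 95% interval for the 6 receptor chains, 7 kinases and transcription factors and 11 restrainers; red marks an edgeR adjusted p below 0.05. The receptor intervals all include 0, whereas 4 genes of the second group and 5 of the third rose and Pias1 fell.

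Genes known to be induced through the interferon gamma receptor were higher in STAT6-/- by their fitted values in 23 of 23 cases, and 16 of them rose, with 0 called lower and a median 5.76-fold difference. Over all genes tested, 50.6% were higher by fitted values, 11.4% rose and 11.5% fell, and the median log2 fold change was 0.01. Their summed level was 7709, 5237 and 6166 CPM in STAT6-/- against 1098, 1835 and 1057 CPM in WT. STAT6-/- replicate 2, in which Ifng had 0 counts, lay above all WT libraries in this sum, to which Cd74 and the class II genes contributed most. Gene by gene, replicate 2 lay above every WT library in 18 of 23, with the share over all genes not computed. The exceptions were the chemokine genes Cxcl9 (5.64 CPM against a WT maximum of 8), Cxcl10 (1.93 against 12.2) and Cxcl11 (0, as in 2 WT libraries), and the GTPase genes Gbp2 (197 against 248) and Iigp1 (42.7 against 59.2). The invariant chain gene Cd74, the most abundant, stood at 1860, 1790 and 1450 CPM against 142, 164 and 125 CPM, an 11.8-fold rise (log2 3.56 ± 0.23, edgeR adjusted p = 0.00182). The class II genes H2-Ab1 and H2-Eb1 rose 7.07-fold and 5.76-fold, and Ido1, which degrades tryptophan, rose 26.8-fold, from 5.5, 11.4 and 4.25 CPM in WT to 282, 145 and 141 CPM. Such genes also respond to type I and III interferons or other signals, and a list of this kind does not tell the ligands apart. Without WT replicates 2 and 3 the list had 5 and 3 genes called, in fits that called 31 of 15497 and 18 of 15395 genes. Cd74, H2-Ab1 and H2-Eb1 passed in all 6 fits with 1 library left out.

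The ligands of the other 2 receptor types were hardly counted. Of 20 type I and III interferon genes, 5 were listed at all (Ifnz, Ifnk, Ifnl2, Ifnb1 and Ifna13), and none had enough counts to be tested. Their summed counts were 2, 1 and 10 in the STAT6-/- libraries and 4, 0 and 1 in WT. At this depth no difference in these ligands was detectable.

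Genes that promote Ifng expression, with their receptors and regulators, had 15 tested members, of which 4 rose and 1 fell, beside 11.4% and 11.5% of all genes, with a median log2 fold change of 1.54. Il12rb1, a chain of the interleukin-12 receptor, stood at 4.57, 1.04 and 3.02 CPM in STAT6-/- against 0.651, 0.558 and 0.624 CPM in WT, a 4.67-fold rise (edgeR adjusted p = 0.0347). Runx3, a transcription factor of cytotoxic lymphocytes, rose 4.42-fold and Tbx21, which encodes T-bet, 5.06-fold. Il18bp, whose product neutralizes interleukin-18 and so acts against the list's name, rose 6.72-fold, from 12.5, 16.8 and 10.8 CPM to 115, 53.6 and 101 CPM (edgeR adjusted p = 0.00965). Interleukin-18 itself, the most abundant of the list as Il18, stood at 133, 189 and 46.7 CPM against 245, 255 and 219 CPM (edgeR adjusted p = 0.154). Il15, a growth factor of natural killer cells and intraepithelial lymphocytes, fell by 2.03 on the log2 scale, at 4.57, 8.2 and 3.76 CPM against 21.4, 21.4 and 24.9 CPM. The interleukin-12 subunit genes were too low to be tested, with 46 counts over STAT6-/- and 3 over WT for Il12a and 115 and 11 for Il12b. The list had 2 genes called without STAT6-/- replicate 1, STAT6-/- replicate 3 or WT replicate 1. Those fits called 1786 of 15203, 3435 of 15223 and 1407 of 15432 genes. It had 0 without WT replicate 2 or 3, where 31 of 15497 and 18 of 15395 genes were called. It had 14 without STAT6-/- replicate 2 (33.9% of all genes in that fit), and 10 by DESeq2 (34.0% of all genes).

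T cell and B cell markers had the same order as Ifng across the STAT6-/- libraries. The 12 T cell markers, all listed and tested, summed to 153.6, 23.7 and 57.66 CPM in STAT6-/- and to 26.79, 29.1 and 23.14 CPM in WT; the library with the most Ifng had the most T cell RNA, and the one with 0 counts lay within the WT range. Of the 12, 3 rose, Zap70, Cd2 and Cd3e (4.81-fold, 5.14-fold and 5.27-fold), a called share near the 22.9% of all genes, of which 11.4% rose. Cd3g, the most abundant, had an edgeR adjusted p of 0.789. No T cell marker was called when any library other than STAT6-/- replicate 2 was left out, in fits that called 18 to 3435 genes. Without that one 9 were called, where 33.9% of all genes were. DESeq2 called 8, where it called 34.0% of all genes, and limma-voom 0, where it called 3288 of 15066. Markers of natural killer, cytotoxic and innate lymphoid cells summed to 72.43, 18.48 and 74.74 CPM against 17.33, 19.73 and 16.45 CPM. In this sum too STAT6-/- replicate 2 lay within the WT range and the other 2 above it. Of 11 tested, 3 rose: Gzmb 35.1-fold, Gata3 6.14-fold and Gzma 7.08-fold, again a called share near the 22.9% of all genes, of which 11.4% rose. Without STAT6-/- replicate 2, 8 were called (33.9% of all genes), and without WT replicate 2 or 3, 0 (31 of 15497 and 18 of 15395 genes). Ccl5, a chemokine of cytotoxic cells and the most abundant of the list, stood at 14.1, 1.57 and 8.94 CPM against 2.37, 3.41 and 2.44 CPM (edgeR adjusted p = 0.139). B cell markers summed to 364.5, 27.72 and 62.1 CPM against 47.67, 53.54 and 35.11 CPM. Of these, 0 of 7 were called by edgeR, beside 22.9% of all genes (the most abundant, Cd79a, had an adjusted p of 0.0678). At an unadjusted p under 0.05 there were 2, and DESeq2 called 3, where it called 34.0% of all genes. Macrophage and monocyte markers had that order too, with sums of 1417, 505.7 and 1173 CPM against 379.5, 556.2 and 562 CPM. By fitted values, 12 of 12 T cell, 9 of 11 natural killer, cytotoxic and innate lymphoid, and 7 of 7 B cell markers were higher. Over all genes tested 50.6% were higher. The part of these cells in the Ifng values was not tested.

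**Figure D4:**
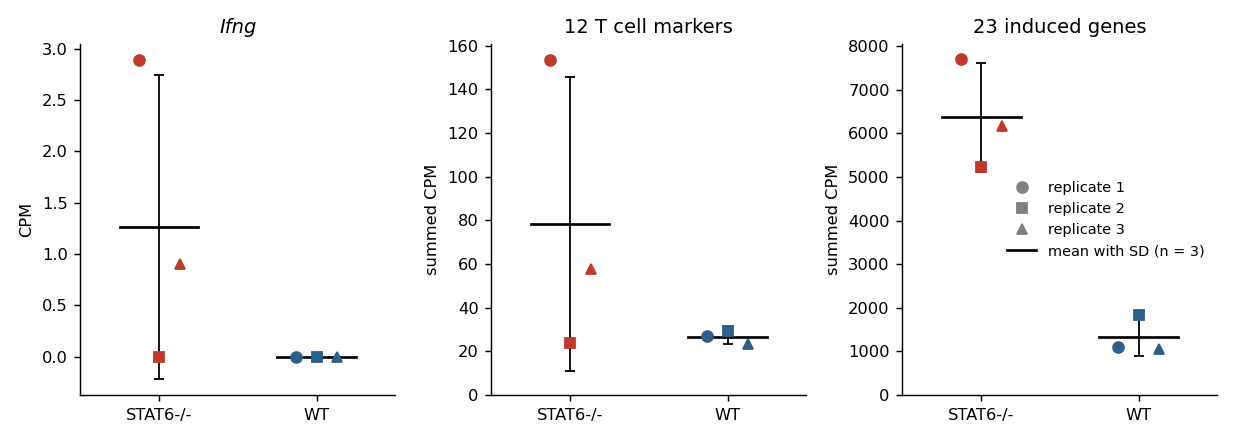
Ifng (left), the sum of 12 T cell markers (middle) and the sum of 23 genes induced through the interferon gamma receptor (right), each as CPM per library; points are libraries, shapes replicates, bars the mean with SD. STAT6-/- replicate 2 lies at 0 for Ifng and at 23.7 CPM for the T cell markers, but at 5237 CPM for the induced genes, above all WT libraries.

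Ifng was compared by its profile with 16566 genes of at least 20 counts, as the root mean square difference of log2 CPM over the 6 libraries after each profile was centred on its mean. The 3 most alike were Mmp10, a stromelysin (0.316), Cd180, a surface protein of B cells and myeloid cells (0.376), and Gm15056 (0.436). Mmp10 had 779, 22 and 210 counts in STAT6-/- and 11, 23 and 21 in WT, and Cd180 had 349, 22 and 125 against 17, 12 and 17. Like Ifng, these were highest in STAT6-/- replicate 1, lower in replicate 3, and near the WT level in replicate 2. This shared order follows from their selection by profile and is not a separate result.

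The markers of other tissue compartments are given as counts beside the 22.9% called over all genes. Fibroblast and smooth muscle markers summed to 3940, 3673 and 7816 CPM in STAT6-/- against 10640, 12080 and 15350 CPM in WT, with 5 of 10 called lower, among them Lum, Acta2, Myh11 and the most abundant, Tagln. Among endothelial markers 3 of 7 rose (Plvap, Vwf and Flt1), and the sums were 164.9, 80.4 and 203.4 CPM against 44.12, 58.57 and 77.77 CPM. Fat cell markers fell in 3 of 3 tested (Adipoq, Cfd and Fabp4), summing to 7.514, 9.189 and 20.89 CPM against 40.22, 71.91 and 232.5 CPM. Shares near that of all genes were called among macrophage and monocyte markers (2 of 10 rose, Cd14 and Ly6c2), neutrophil markers (1 of 7, Retnlg) and epithelial markers (of 11, Krt20 and Vil1 rose and Tspan8 fell). Over all genes, 11.4% rose and 11.5% fell. By fitted values, 10 of 10 macrophage and monocyte, 7 of 7 neutrophil and 8 of 11 epithelial markers were higher, beside 50.6% of all genes. The most abundant genes of these lists, Lyz2, Ly6g and Lgals4, were not called, with edgeR adjusted p of 0.537, 0.0696 and 0.0692. Without WT replicate 2 or 3, 0 markers of these 6 compartments were called, in fits that called 31 of 15497 and 18 of 15395 genes. Without STAT6-/- replicate 1, where 1786 of 15203 genes were called, 1 fibroblast and smooth muscle, 0 fat cell and 1 epithelial marker were called. Without WT replicate 1, where 1407 of 15432 genes were called, the epithelial count was 0. The receptor values above were not adjusted for these differences, and the part of tissue makeup in them was not tested.

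Il10rb also pairs with receptors outside the interferon system. Of 10 receptor and ligand genes of the interleukin-10 family, some of which do not pair with Il10rb, 4 were tested (Il10ra, Il22ra1, Il20rb and Il22ra2, which encodes a soluble binding protein). Of these, 0 were called by edgeR (22.9% of all genes), with 1 at an unadjusted p under 0.05. DESeq2 called 1 (34.0% of all genes), and the fit without STAT6-/- replicate 2 called 1 (33.9%). Il10ra, the specific chain of the interleukin-10 receptor, stood at 21.7, 5.43 and 24.5 CPM in STAT6-/- against 3.55, 5.34 and 5.9 CPM in WT (log2 1.8 ± 0.55, edgeR adjusted p = 0.0551). Only STAT6-/- replicate 2 lay within the WT range. Il22ra1, the epithelial chain of the interleukin-22 receptor and the most abundant of the list, stood at 77.8, 134 and 217 CPM against 126, 130 and 95 CPM (edgeR adjusted p = 0.571). Il22 itself had 66 counts over the STAT6-/- libraries, nearly all in replicate 1, and 0 over WT.

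Other cytokine receptors of colon epithelium and stroma served as a comparison. Of 18, 5 rose and 1 fell, where 22.9% of all genes were called, with a median log2 fold change of 0.87; DESeq2 called 11, where it called 34.0% of all genes. Tnfrsf1b, a receptor of tumour necrosis factor, stood at 206, 96.7 and 250 CPM in STAT6-/- against 20.9, 22.2 and 22.1 CPM in WT, an 8.47-fold rise (edgeR adjusted p = 0.00965). Il4ra, the interleukin-4 receptor chain upstream of STAT6, rose 4.61-fold, from 25.6, 25.6 and 24.3 CPM to 143, 56.9 and 148 CPM, and Il17ra rose 2.03-fold. Lifr, the receptor of leukaemia inhibitory factor, fell by 1.31 on the log2 scale. Il13ra1, the most abundant, had a log2 fold change of 0.23 ± 0.19 (edgeR adjusted p = 0.373). Whether interferon receptors differ from these as a class was not tested. The list had 3 genes called without STAT6-/- replicate 1 or WT replicate 1, where 1786 of 15203 and 1407 of 15432 genes were called. It had 0 without WT replicate 2 or 3 (31 of 15497 and 18 of 15395 genes), and 11 without STAT6-/- replicate 2 (33.9% of all genes).

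Of the 6 receptor genes, 4 lie side by side on chromosome 16, from 91372783 to 91564007, and Il10rb begins 567 bases after the end of Ifnar2. Within 250 kb of this span the annotation has 23 other genes, of which 9 were tested and 1 was called: Cryzl1, a quinone oxidoreductase-like gene, at 22.1, 24.3 and 18 CPM in STAT6-/- against 48, 57.4 and 61.3 CPM in WT (log2 -1.37 ± 0.17, edgeR adjusted p = 0.00965; 0.0641 and 0.0675 without WT replicates 2 and 3). Within 100 kb, 4 others were tested and 0 called. Around Ifng, 28 other genes lie within 500 kb and 2 were tested. Mdm1 rose (log2 1.4 ± 0.34, edgeR adjusted p = 0.0301), a call that was lost when STAT6-/- replicate 1 or any 1 WT library was left out, and Dyrk2 had a log2 fold change of -0.06 ± 0.32. The other cytokine genes there, Il22 and its near-identical copy Iltifb, had 66 and 22 counts in STAT6-/- and 0 in WT, and reads may be divided uncertainly between the copies.

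**Figure D5:**
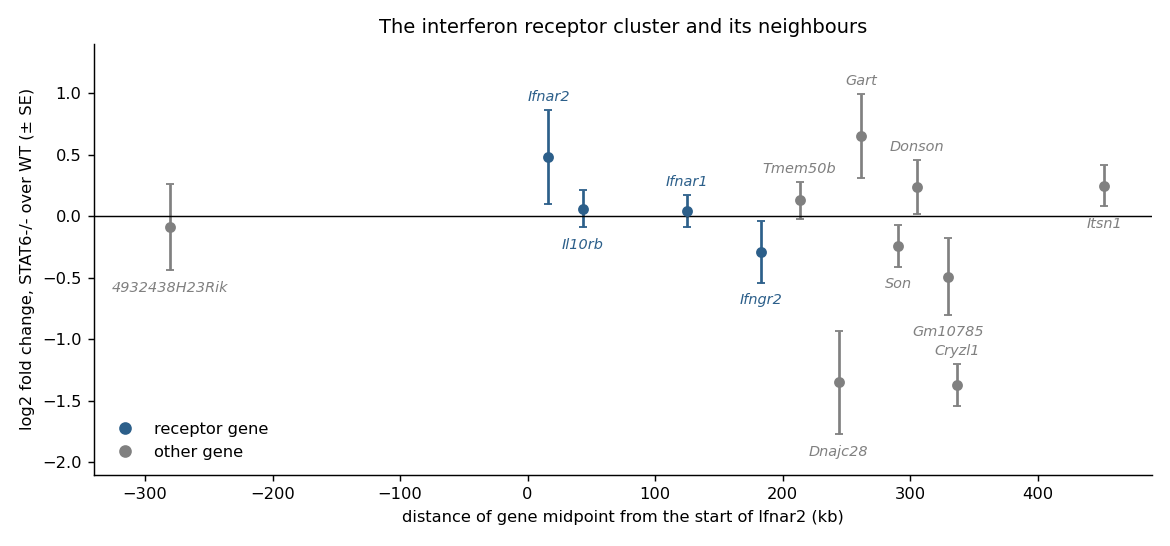
Log2 fold change of STAT6-/- over WT with its SE (vertical axis) for the tested genes of the chromosome 16 cluster and its surroundings, by distance of the gene's midpoint from the start of Ifnar2 in kb (horizontal axis). The 4 receptor genes lie between -0.29 and 0.48, and Cryzl1 is the only gene called.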

How the data were processed

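Total RNA of colon was sequenced in 3 STAT6-/- and 3 WT samples. The authors deposited expected counts per RefSeq transcript, not normalized, and, per the file headers, FPKM values that allow for length and depth. The submitters' processing notes name Bowtie2 2.2.5, RSEM 1.2.12 and the build mm10. The lowest FPKM listed was 0.01, and an unlisted transcript was taken as 0.

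Expected counts were summed per gene (27986 of 28238 transcripts named from RefSeq, 149 from GENCODE M21; 103, with 0.167% of counts, kept as unnamed entries) and rounded. The genotype contrast was fitted in edgeR 4.0.16 under R 4.3.3 (TMM, filterByExpr, robust quasi-likelihood F test) at a Benjamini-Hochberg adjusted p below 0.05; "rose" and "fell" mean passing. CPM use TMM factors; intervals are 95%. The fit was also run on simulated counts that had the same dispersion for all genes. That run does not measure how the calls here depend on single libraries. Alternatives were DESeq2 1.42.0, limma 3.58.1, other scalings and filters, a replicate block and each library left out. The labels do not say that replicates are separate animals, so p-values cover only the spread between these samples, possibly a technical one.

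The members and the 17 gene lists were chosen with earlier results of these data known. Named from each list are its called genes, at most 4 by smallest p, and its most abundant gene; others named (Ptpn1, Pias1, Tbx21, Il12a, Il12b, Jak1, Jak2, Il10ra, Il22ra2, Il20rb, Il22, Iltifb, Dyrk2, Kdm5d, Cxcl9, Cxcl10, Cxcl11, Gbp2, Iigp1) were picked with their values in view. Some genes of these lists were left out and are not reported here. Plots used matplotlib 3.10.9.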

Additional observations from a re-analysis of the deposited data

How the results depend on the processing

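None of the 6 receptor genes was called under 16 of the 17 alternatives, and without STAT6-/- replicate 2, its only STAT6-/- library below WT, Ifnar2 was. In that fit Ifng (log2 8.14) also passed the filter and the threshold. It passed the filter without WT replicate 1, 2 or 3 too, at log2 7.57, 7.58 and 7.56. The threshold was not passed there (edgeR adjusted p = 0.154, 0.187 and 0.198). The call without STAT6-/- replicate 2 leaves out the STAT6-/- library with 0 Ifng counts, which fixes the outcome. Counted with Ifng, leaving out each library gave 0 to 2 called members. Over all genes, 3449 were called, and leaving out each library gave 18 (without WT replicate 3) to 5190 (without STAT6-/- replicate 2), with 31 without WT replicate 2, 1407 without WT replicate 1 and 1786 without STAT6-/- replicate 1; the cause was not tested. Most list calls were lost without WT replicate 2 or 3. DESeq2 called 5116 genes and the replicate block 2664. Same-numbered libraries correlated at 0.023, 0.0445 and 0.134, so the numbers were not taken to pair the samples; under the block 0 members were called. The sign of Il10rb turned without WT replicate 3 (-0.04), with values over all 18 settings of -0.04 to 0.16. The log2 ratio of Ifngr1 over Ifngr2 differed by -0.0218 to 0.201 when each library was left out, turning sign without WT replicate 2 (-0.0218) and STAT6-/- replicate 1 (-0.00547). Other scalings moved the median log2 fold change of all genes by less than 0.1. The 100 kb window around the receptor cluster gave 0 calls among 4 genes tested, and that around Ifng held no tested gene. Depth limits the type I and III ligands, with at most 10 counts a library, and Ifng in the libraries where it had 0 counts.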
